A study of Mus musculus with 3 samples.

Results

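Classical blood monocytes with few MHC class II transcripts were the largest of the classes set by marker counts among sorted and filtered myeloid cells from the blood of control mice bearing melanoma. They were picked from the control blood library by their own marker counts, measured as unique molecular identifiers (UMIs, 1 per captured transcript). A cell was kept with 1000 UMIs or more, 400 genes or more, and no more than 10% of its UMIs mitochondrial. The sum B counted the classical monocyte genes Ly6c2, Ccr2, Vcan, Fn1, F13a1 and Chil3. The sum A counted the nonclassical monocyte genes Ace, Cd300e, Eno3, Ear2, Gngt2 and Treml4. Members had B of at least 3 and above A, at most 3 UMIs of H2-Aa, H2-Ab1 and H2-Eb1, under 5 UMIs of Ifit1, Ifit2, Ifit3, Ifit3b and Rsad2, and at most 1 UMI of the granule genes Ngp, Camp and Ltf. They numbered 2217 of 5550 kept blood cells, a share of 39.9% (exact binomial 95% interval 38.7 to 41.2%), among 14427 kept cells in the series.

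The series holds 3 droplet libraries of single cells, counted at the 3′ end of transcripts, 1 per group, all from C57BL/6J mice with subcutaneous B16F10 melanoma. The groups were blood of control mice, tumor of control mice, and tumor of the Treg-depleted group. Both control libraries are titled WT, for wild type. Treg stands for regulatory T cell. That last group is titled FoxP3 DTR, a name used for mice with a diphtheria toxin receptor in those cells, so allele and depletion cannot be told apart. Blood came by cardiac puncture with red cell lysis, and tumors were digested with enzymes. Sorted cells were CD45+, carried CD11b, CD11c or both, and lacked CD90, NK1.1, Ly6G, B220 and SigF. The number of animals behind each library, any pooling, and the animals' age are not given in the sources used here. With 1 library per group there was no test between groups, and no p-value or standard error is given. Intervals are at 95%, exact Poisson for levels, exact conditional for ratios and exact binomial for shares, and they cover counting error only, not the difference between animals.

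Classical monocytes leave the bone marrow through the chemokine receptor Ccr2 and circulate for a short time. In blood some convert to nonclassical monocytes, which lose Ly6c2 and Ccr2 and patrol the vessel wall under the nuclear receptor Nr4a1, and others enter inflamed tissue or tumors and become macrophages or dendritic-type cells. Some classical monocytes carry a neutrophil-like set of granule genes, others a dendritic-like set with MHC class II.

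The genes that define the class start at the following DNA. The 150 bases before the start are taken from the RefSeq promoter table (mouse build GRCm38.p6), which held 10 of these genes. Shown are the 5 with a marked match in that window and, for comparison, Vcan and Ace out of the 5 without one, the others being Ccr2, Cd300e and Eno3. Capitals mark the letters GAGGAAGT, a site type of the myeloid factor PU.1, and TTNCNNAA, a site type of the C/EBP factors, on either strand.
Ly6c2, chr15:75111972-75112121, minus strand: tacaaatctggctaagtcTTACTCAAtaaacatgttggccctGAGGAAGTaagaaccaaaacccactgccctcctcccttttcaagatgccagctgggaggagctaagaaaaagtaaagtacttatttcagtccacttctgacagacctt
Chil3, chr3:106167565-106167714, minus strand: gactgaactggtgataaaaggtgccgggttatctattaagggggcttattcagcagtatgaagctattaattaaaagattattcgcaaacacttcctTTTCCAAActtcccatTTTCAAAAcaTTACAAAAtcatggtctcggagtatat
F13a1, chr13:37050245-37050394, minus strand: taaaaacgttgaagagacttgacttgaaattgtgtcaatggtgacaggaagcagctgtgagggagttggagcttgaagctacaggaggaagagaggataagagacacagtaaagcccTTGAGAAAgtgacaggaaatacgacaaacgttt
Vcan, chr13:89742513-89742662, minus strand: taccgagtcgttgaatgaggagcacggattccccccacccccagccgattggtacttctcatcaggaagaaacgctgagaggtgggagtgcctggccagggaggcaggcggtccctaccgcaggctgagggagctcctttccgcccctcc
Ear2, chr14:44102504-44102653, plus strand: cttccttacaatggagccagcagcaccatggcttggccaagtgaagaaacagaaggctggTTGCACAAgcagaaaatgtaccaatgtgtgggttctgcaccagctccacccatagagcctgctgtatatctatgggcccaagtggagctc
Treml4, chr17:48264145-48264294, plus strand: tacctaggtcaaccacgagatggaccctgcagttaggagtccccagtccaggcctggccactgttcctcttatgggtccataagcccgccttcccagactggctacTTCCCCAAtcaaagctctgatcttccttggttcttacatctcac
Ace, chr11:105967798-105967947, plus strand: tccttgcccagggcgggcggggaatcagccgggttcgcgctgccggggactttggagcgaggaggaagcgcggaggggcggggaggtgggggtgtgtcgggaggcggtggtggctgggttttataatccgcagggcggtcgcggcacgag
In Ly6c2 the C/EBP-type match began 132 bases and the PU.1-type match 108 bases before the start, with no overlap. Chil3 held 3 C/EBP-type matches, beginning 53, 37 and 27 bases before its start. Over 250 bases before the start, the PU.1-type letters stood in 1 of the 5 sum B genes in the table and in 0 of the 5 sum A genes, against 2.44% of all 32851 promoters. The C/EBP-type letters stood in 4 and in 3 of them, against 36.8% of all promoters. A gene counted with a match in any of its promoters in the table, whereas the shares of all promoters count each promoter by itself. The 2 measures are therefore not alike. These matches describe letters only.

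Over the series, 4443 control tumor and 4434 Treg-depleted tumor cells passed the same filters, beside 5550 blood cells. Median UMIs per kept cell were 3550 for the blood library, and 6452 and 3820 for the control and Treg-depleted tumor libraries. Cell barcodes shared between libraries numbered 27 to 36 per pair, where 26.7 to 33.4 were expected from the library sizes alone, and 10 and 11 of the shared barcodes belonged to members.

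Members had a median of 3784 UMIs, 1514 genes and 2.42% mitochondrial UMIs. The values that chose them are given here as a description. The median of B was 25 UMIs, with 90% of members between 7 and 62. Of the 6 genes of B, 6 were detected in 262 members, 5 in 856, 4 in 679, 3 in 273, 2 in 97 and 1 in 50. The sum A was not absent: its median was 3 UMIs, it was 0 in 320 members and at least 3 in 1162, and most of it was Gngt2, a G protein subunit of myeloid cells. Class II counts were 0 in 1148 members, interferon counts 0 in 1702 and granule counts 0 in 2075.

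**Figure D1:**
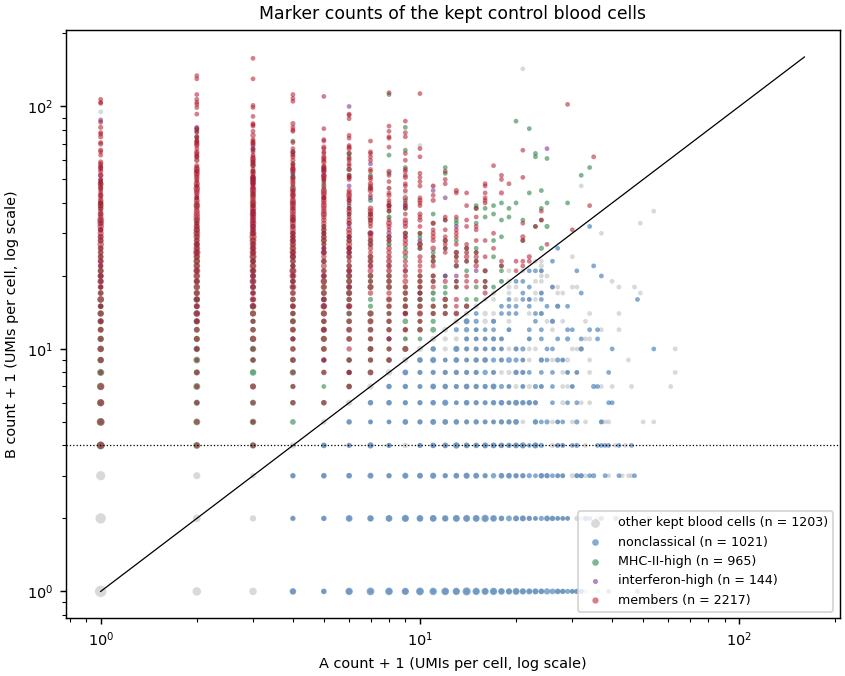
Each point is a pair of marker counts in control blood cells, with the sum A plus 1 on the horizontal and the sum B plus 1 on the vertical axis (UMIs per cell, both log scales) and point size growing with the number of cells. The 2217 members (red) lie above the diagonal line of equal counts and on or above the dotted line at B of 3, and the 1021 nonclassical monocytes (blue) lie below the diagonal.

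The steps of the rule kept 4279 cells at B of at least 3, 3452 with B above A, 2414 after the class II limit, 2270 after the interferon limit and 2217 after the granule limit. Cells just inside and just outside each limit are given in that order. At B of 3 and 2 stood 27 and 32 cells, and their pooled Lyz2 levels were 4516 and 4076 CPM, the UMIs of a gene per 1000000 UMIs of the class. The NK cell list took 12378 and 13313 CPM in them. At B above A by 1 and at equality stood 39 and 36 cells, with Lyz2 at 37643 and 34857 CPM. At 3 and 4 class II UMIs stood 101 and 52 cells, and Cd74, the class II chaperone, was at 1872 and 3847 CPM. At interferon counts of 4 and 5 stood 42 and 22 cells with Isg15 at 1088 and 1017 CPM. At 1 and 2 granule UMIs stood 142 and 3 cells.

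By markers outside the rule the class was monocytic. Lyz2, the lysozyme of macrophages and monocytes, took a median of 5.05% of a member's UMIs. Csf1r, the receptor for the monocyte growth factor, was at 399 CPM in members, 63.3 CPM in B cell-type and 27.2 CPM in NK cell-type cells of the same library. Of other cell types, 93 members had at least 3 UMIs of the cDC2 list and 366 of the plasmacytoid list, whose Bst2 and Runx2 monocytes also express. At the same limit were 17 members for granulocyte precursors, 10 for macrophages, 4 for B cells, 4 for T cells, 3 for basophils, 3 for red cells, 1 for platelets and 0 for cDC1, eosinophils and melanoma. Cd3e, Vsig4, Prg2, Epx, Ppbp and Mlana had 0 UMIs in members. Cd3e, Prg2 and Epx had 0 UMIs in every class counted, so their absence does not set members apart. Other genes of these lists were counted in members, with 51 UMIs for the T cell, 384 for the macrophage and 27 for the platelet list.

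Some members carried markers of other cell types. The NK list reached 3 UMIs in 48 members, which had Gzma, a cytotoxic granule protease, at 14695 CPM and a median of 0.086% Lyz2. The neutrophil list reached 3 UMIs in 73 members, with S100a8 at 12516 CPM, Retnlg at 2072 CPM and a median of 4.34% Lyz2. In the 69 of them with at least 0.5% Lyz2, Lyz2, Ly6c2 and Csf1r were at 44892, 1561 and 398 CPM, against 51799, 1587 and 411 CPM in members with no such sign, so these cells carried both marker sets. Lyz2 was under 0.5% of UMIs in 104 members. Of these, 58 were in neither list and carried Bst2 at 2274 CPM, Cd7 at 2033 CPM, Cd209a at 972 CPM and Tcf4 at 584 CPM, genes of dendritic cell types. Together 179 members (8.07%, interval 6.97 to 9.29%) carried at least 1 of the 3 signs, although the sort was set against NK1.1 and Ly6G. Without them 2038 members remained, 36.7% of blood cells. The other lists were not used: of these 2038, 49 still had at least 3 UMIs of the cDC2 list, 15 of the granulocyte precursor list and 4 of the B cell list. Where cells with markers of other types are left out below, this trimming is meant. Results below are given for all members and, where they differ, for these 2038, called the trimmed class, with the same cells left out of the class compared. Of the 2217, 17 had between 0.25 and 1% Lyz2, so few lay near that limit, which was set after the values had been seen.

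The 6 genes of B differed in how widely they were counted. Ccr2 stood at 1559 CPM in members (1532 to 1586), and 84.5% of members had at least 1 UMI of it after every cell was thinned to 1500 UMIs, 94.9% before. In B cell-type cells, which should lack it, the thinned share was 8.57%, at median depths of 3784 and 1746.5 UMIs before thinning. Thinning left out 36 members. Chil3, a secreted chitinase-like protein, was at 3003 CPM and Ly6c2, the surface protein for which the cells are named, at 1582 CPM. Fn1, which encodes fibronectin, was at 743 CPM, F13a1, a clotting factor subunit, at 582 CPM and Vcan, a matrix proteoglycan, at 74.7 CPM. Counting takes place at the 3′ end, so CPM is not divided by gene length. Of all 90-base windows in the last 500 bases, 8.52% of those of Ly6c2 are identical in Ly6c1 and 9.0% of those of Chil3 in Chil4, so a small part of these counts depends on how reads were assigned.

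**Figure D2:**
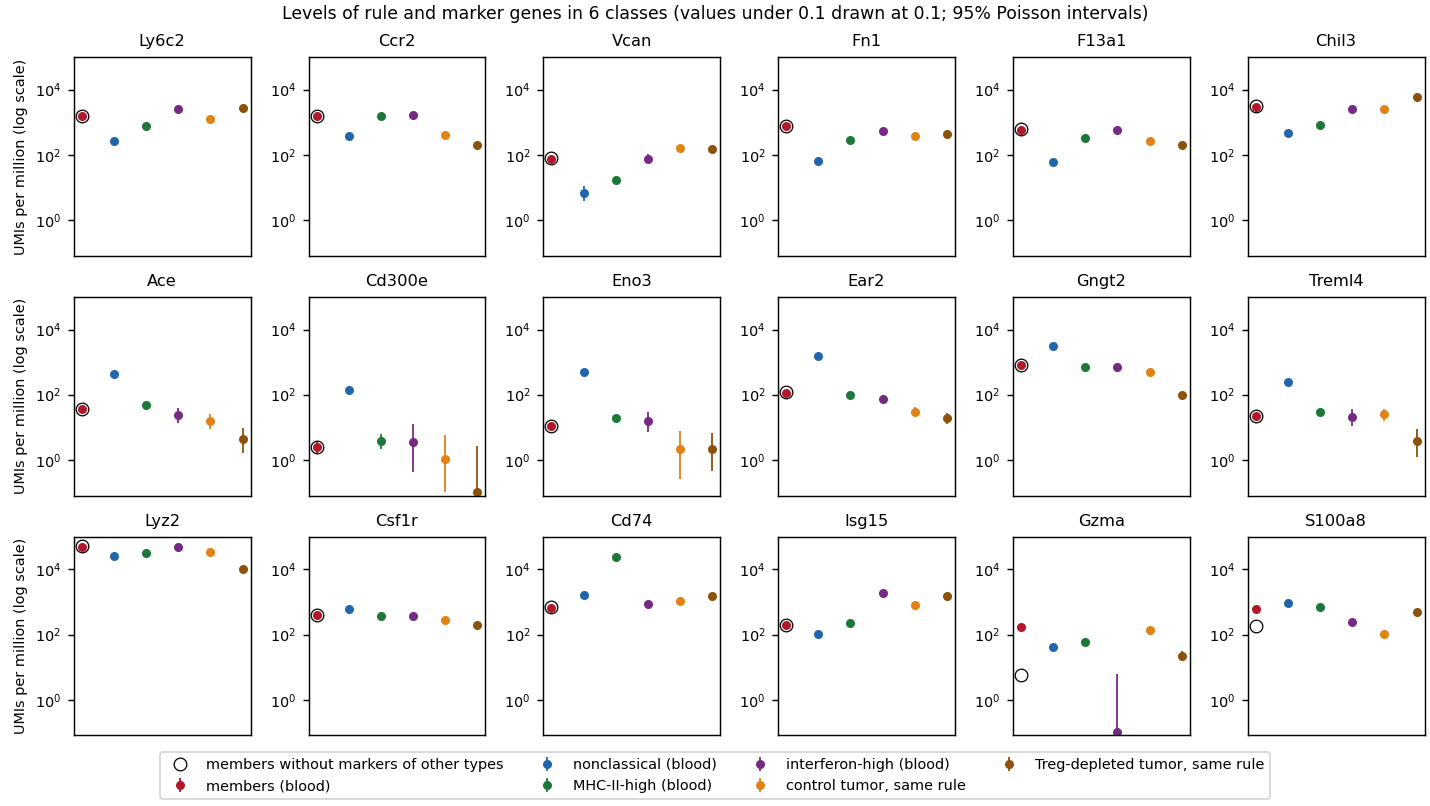
CPM (log scale) of rule and marker genes in the 6 classes, from summed counts with 95% Poisson intervals, open circles showing members without cells with markers of other types. Lyz2 and Csf1r differ little between the red point and the open circle, whereas Gzma falls from 168 to 5.71 CPM and S100a8 from 628 to 181 CPM.

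The most counted genes outside the rule, ribosomal protein and mitochondrial genes were Lyz2 at 49677 CPM, the actin-binding Tmsb4x at 23827 CPM and the nuclear RNA Malat1 at 12151 CPM. Next came Ifitm3, a restriction factor of viruses, at 7523 CPM, the ferritin light chain Ftl1 at 7483 CPM, and Plac8 at 6370 CPM. Tyrobp and Fcer1g, the signalling adaptors of Fc and related receptors, were at 5752 and 5020 CPM. The chemokine genes Ccl6 and Ccl9 were detected in 80.1% and 74.8% of thinned members. S100a8 was counted in 18.6% of thinned members, against 25.7% of 35 B cell-type and 28.4% of 67 NK cell-type cells, so its share was no higher than the background of the library.

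Nonclassical monocytes, 1021 cells with A of at least 3 and above B and the same other limits, were compared first. The same counts chose the classes of all 3 blood contrasts, so these are descriptions. Members had more Mmp8 and Cd177 and fewer transcripts of the nonclassical programme and of Bcl2. Of 2889 genes with at least 100 UMIs and 50 CPM in the higher class, 92 (3.18%) were higher in members by 2-fold or more and 148 (5.12%) lower. Trimming gave 88 (3.06%) and 154 (5.35%). Nonclassical cells were shallower, with a median of 2132 UMIs, and with cells of 2000 to 5000 UMIs alone the counts were 72 and 115.

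Among the genes higher in members, Mmp8, a neutrophil collagenase, was at 109 CPM against 14.4 CPM in nonclassical monocytes (log2 ratio 2.92, 2.44 to 3.45). Cd177, a surface protein best known from neutrophils, was at 138 against 27.6 CPM (2.32). Capg, an actin-capping protein, and S100a10, a partner of annexin, were at 684 against 141 CPM and at 875 against 201 CPM. Emb, an adhesion protein of the immunoglobulin family, was at 613 against 228 CPM. Cd7 had the largest ratio, 63.9 against 7.61 CPM, but in the trimmed class it was at 5.71 CPM, with a log2 ratio of 0.17. Cd209a, at 70.4 against 8.81 CPM (3.00), kept a ratio of 2.29 after trimming, which did not use the cDC2 list that holds it.

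The reverse genes were those of the patrolling cell. Of the nonclassical monocyte programme, 20 of 24 genes that passed the filter, of 28 on the list, were at least 2-fold lower in members, with a median log2 ratio of -2.67 where all genes had 0.01. That list was chosen with earlier results of these data known. Fabp4, a fatty acid carrier, was at 7.16 CPM against 372 CPM (log2 ratio -5.70, -6.10 to -5.32). The scavenger receptor Cd36 was at 8.81 against 179 CPM (-4.35), and the immune complex receptor Fcgr4 at 24.3 against 288 CPM. Nr4a1, on which nonclassical monocytes depend, was at 77.6 against 321 CPM, and Pou2f2 at 245 against 787 CPM. The adhesion genes Itgal and Spn were at 135 against 563 CPM and at 46.0 against 286 CPM. Cx3cr1, the fractalkine receptor, did not reach 2-fold in either direction.

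Survival genes were lower in 5 of 15 tested, where 5.12% of all genes were lower in members and 3.18% higher. Bcl2 was at 12.1 CPM in members against 143 CPM in nonclassical monocytes (log2 ratio -3.56). Bcl2a1b, Bcl2a1d and Bcl2a1a were at 13.5, 12.1 and 9.28 CPM against 317, 209 and 154 CPM, though these 3 are near-identical copies and how reads were divided among them is uncertain. Lineage transcription factors were higher in 1 and lower in 5 of 20: Cebpa, a factor of granulocyte and monocyte precursors, was at 76.8 against 25.2 CPM, and Cebpb was at 469 against 1086 CPM. Granulocyte-type genes were higher in 5 and lower in 1 of 10, the 1 being Pglyrp1 at 131 against 1189 CPM. Type I interferon genes were higher in 4 of 21, among them Ifi203 at 292 against 97.3 CPM. Oxidative phosphorylation genes were past 2-fold in 0 of 34, with a median of 0.13.

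**Figure D3:**
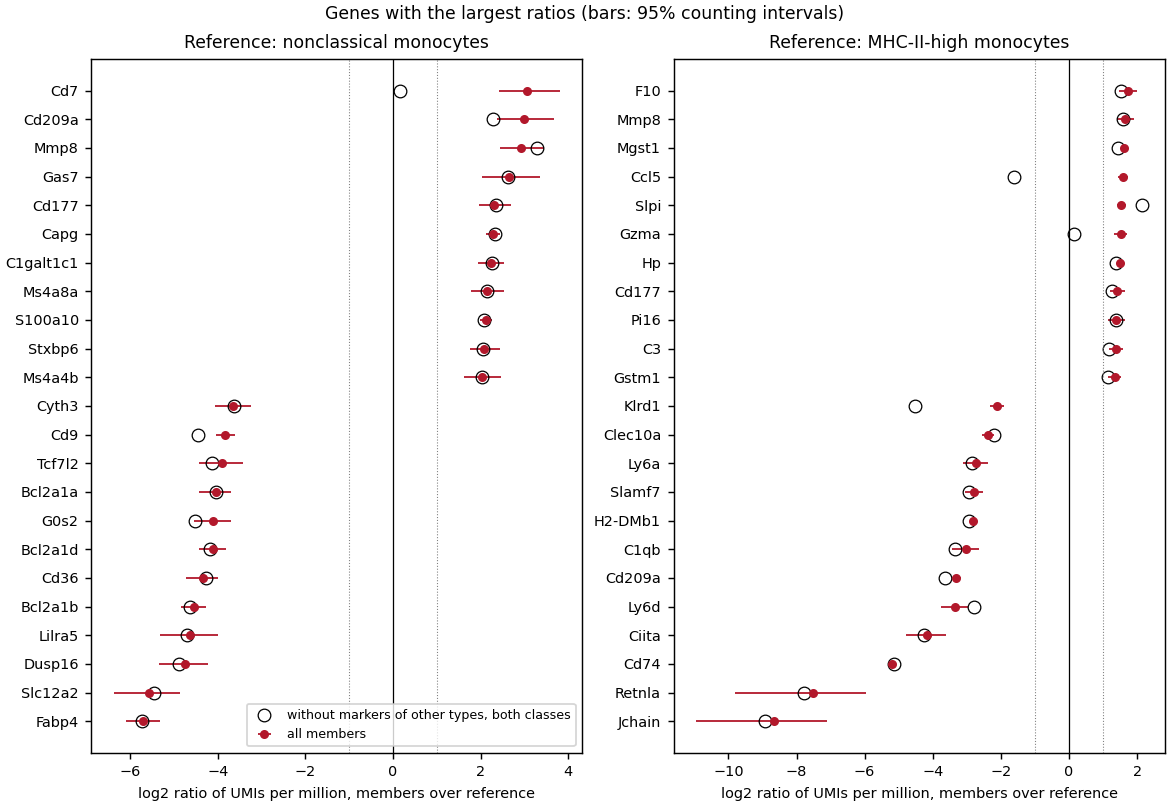
Log2 ratios of CPM, members over nonclassical monocytes (left) and over MHC-II-high monocytes (right), for genes among the 12 highest and 12 lowest of each contrast, with 95% counting intervals and dotted lines at 2-fold. Open circles, without cells with markers of other types in either class, lie near the red points for most genes but not for Cd7 on the left or Ccl5 and Gzma on the right.

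Within classical monocytes the class II limit separated 965 MHC-II-high monocytes, which met the other limits but had more than 3 class II UMIs. Few genes differed: of 2708 tested, 27 (0.997%) were higher in members by 2-fold or more and 35 (1.29%) lower. With class totals taken without rule, ribosomal protein and mitochondrial genes the split was 25 and 54. Trimming left 745 of the 965 cells of that class and gave 19 (0.711%) and 29 (1.08%) genes.

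Members carried more of the granulocyte-type genes, 5 of 10 tested being at least 2-fold higher with a median log2 ratio of 1.12, against 0.06 over all genes. Mmp8 was at 109 CPM against 34.9 CPM in MHC-II-high monocytes. Mgst1, a membrane glutathione transferase, was at 1026 against 335 CPM (log2 ratio 1.61). Hp, the haptoglobin that binds free haemoglobin, was at 1345 against 477 CPM. Cd177 was at 138 against 51.8 CPM and Gstm1 at 166 against 65.3 CPM. After trimming it was 6 of 9, Pglyrp1 added, with a median of 1.27.

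Other genes higher in members were F10, clotting factor X, at 120 against 36.3 CPM (log2 ratio 1.73), and Slpi, a protease inhibitor of secretions, at 322 against 111 CPM (1.54, and 2.15 after trimming). C3, the central complement component, was at 149 against 57.0 CPM. Lpl, the lipoprotein lipase, was at 124 against 50.1 CPM. Ccl5 and Gzma were also among the 12 largest ratios, and in the trimmed classes Ccl5 was at a log2 ratio of -1.61. The NK list reached 3 UMIs in 48 members and 8 MHC-II-high cells.

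Lower in members were genes of the class II pathway and of dendritic cells. Of the pathway, 4 of 7 were at least 2-fold lower: Cd74 at 674 against 24757 CPM (log2 ratio -5.20), H2-DMb1, which loads peptide, at 134 against 952 CPM, H2-DMa at 435 against 1098 CPM, and Ciita, the factor that switches these genes on, at 3.29 against 59.1 CPM. The antigen-presentation genes move with the 3 class II genes that set the limit, so these values describe the rule. Of the dendritic cell-type genes, 7 of 11 were at least 2-fold lower, among them Cd209a at 70.4 against 699 CPM, Clec10a at 39.1 against 203 CPM and Flt3 at 18.4 against 59.1 CPM. Jchain, which joins antibody chains, had 3 UMIs in all members and 604 in MHC-II-high cells, and Retnla, a resistin-like secreted protein, had 3 and 273. The ratio of Jchain was -8.67 (-10.95 to -7.11) and that of Retnla -7.52 (-9.81 to -5.96). The cDC2 list reached 3 UMIs in 93 of 2217 members and 349 of 965 MHC-II-high cells, at 129 and 969 CPM summed over its 5 genes, none of them at 0. Trimmed, the dendritic cell-type count was 4 of 7, and the part of such cells was otherwise not tested.

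Interferon-high monocytes, 144 cells with 5 or more UMIs of the 5 interferon rule genes, differed from members in other genes of the same response. Of 2089 genes tested, 81 (3.88%) were at least 2-fold lower in members and 23 (1.1%) higher. The median log2 ratio of all genes was 0.18. With the median set to 0 the counts were 14 higher and 91 lower, and with totals taken without rule, ribosomal protein and mitochondrial genes 45 and 80. Trimming gave 14 (0.682%) higher and 79 (3.85%) lower.

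Of the type I interferon list, 24 of 27 genes tested were at least 2-fold lower in members, with a median of -2.02. Cxcl10, a chemokine for T cells, was at 7.87 CPM against 648 CPM (log2 ratio -6.36). Isg15, a ubiquitin-like modifier, was at 197 against 1837 CPM, Irf7, the factor that amplifies the response, at 245 against 1203 CPM, and Usp18, its brake, at 56.9 against 479 CPM. Of the interferon gamma list, 6 of 8 were lower, among them Gbp2 at 33.5 against 301 CPM. Fcgr1, the high-affinity receptor for IgG, was at 149 against 600 CPM. Of the coagulation, immediate early, adhesion and oxidative phosphorylation lists 0 genes were past 2-fold, with medians of 0.43, 0.43, 0.16 and 0.19. The adhesion median was below 0 with the median of all genes set to 0. Granulocyte-type genes were higher in 2 of 9, and in 0 of 7 after trimming. Nkg7, Gzma, Cd7 and Ccl5 led the genes higher in members, and after trimming Tuba4a, a tubulin, did, at 52.4 against 17.5 CPM (1.58, 0.69 to 2.65).

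The same counts were then applied to the tumors, where 222 control and 362 Treg-depleted tumor cells met the rule. They are not shown to be the same cell type. Lyz2 was at 33861 and 10467 CPM in them against 49677 CPM in blood members, and the macrophage list reached 3 UMIs in 18 of the 222 and 80 of the 362, against 10 of 2217. Trimming left 190 and 158 tumor cells. Of the 362, 8 reached 3 UMIs of the neutrophil list and 1 of the NK list. Most cells trimmed from that class therefore fell to the Lyz2 limit alone, which was set on blood, and are not shown to be other cell types. Tissue, library, digestion and, for the depleted tumor, condition and allele cannot be told apart, and both comparisons share the blood members.

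Against the control tumor, 474 of 2565 genes (18.5%) were higher in blood members by 2-fold or more and 368 (14.3%) lower. The median of all ratios was 0.35. With that median set to 0 the split was 274 and 468, and with totals taken without rule, ribosomal protein and mitochondrial genes 683 and 339, so the direction of the split depends on the scaling. Against the Treg-depleted tumor, 743 of 2878 (25.8%) were higher and 511 (17.8%) lower, with a median of 0.33. The other scalings gave 478 and 638, and 1001 and 485. After trimming the splits were 495 (20.1%) and 342 (13.9%), and 671 (27.3%) and 321 (13%).

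Most inflammatory cytokine and chemokine genes tested were lower in blood than in the tumors, though Ccl6 and Ccl9, also on the list, were counted in most thinned members. Of the list, 14 of 17 tested genes were at least 2-fold lower in members than in control tumor cells and 16 of 19 than in Treg-depleted tumor cells, with medians of -6.87 and -7.94, where 14.3% and 17.8% of all genes were lower. Il1b was at 45.3 CPM in blood and at 7187 and 2856 CPM in the tumors. Cxcl2, which attracts neutrophils, was at 2.82, 3822 and 4800 CPM, and Ccl2, which attracts monocytes, at 9.75, 692 and 4462 CPM. Ptgs2, the inducible cyclooxygenase, had 1 UMI in all members and 237 and 846 in the tumor cells. Arg1, which consumes arginine, had 0 UMIs in members and was at least 328-fold higher in control and at least 7894-fold higher in Treg-depleted tumor cells, from a floor of 3 counts over the class.

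Sensing and interferon gamma genes followed the same direction. Cd14, the co-receptor for lipopolysaccharide, was at 38.9 CPM in members and at 6575 and 1811 CPM in the tumor cells, and Clec4e, a receptor for mycobacterial lipid, at 37.4, 1563 and 774 CPM. Of the pattern recognition list, 6 of 10 and 7 of 11 were at least 2-fold lower in blood, against 14.3% and 17.8% of all genes. Of the interferon gamma list, 12 of 14 and 15 of 17 were lower: Gbp2 was at 33.5 CPM in blood and at 1087 and 1365 CPM in the tumors, and Cd274, the checkpoint ligand PD-L1, at 1.17, 207 and 477 CPM. Of the immediate early and heat shock list, 14 of 18 and 13 of 18 were lower (14 of 18 and 8 of 14 after trimming), among them Nfkbia at 264 CPM against 3041 and 2170 CPM and Hspa1a at 6.81 against 225 and 339 CPM. Tissue digestion was applied to the tumors and not to the blood, and its part in these genes was not tested.

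Metabolic lists were counted next. Glycolysis genes were at least 2-fold lower in blood than in the control tumor in 4 of 11 and than in the Treg-depleted tumor in 12 of 16, against 14.3% and 17.8% of all genes, and trimming gave 4 of 11 and 5 of 12, against 13.9% and 13%. Slc2a1, a glucose transporter, was at 141 CPM in Treg-depleted and 70.8 CPM in control tumor cells, and lower in members. Whether the tumors differ from each other was not tested. Fth1, the ferritin heavy chain, was at 2783 CPM in blood and at 15010 and 19193 CPM, and Hmox1, which degrades haem, at 110, 711 and 1725 CPM. Oxidative phosphorylation genes were past 2-fold in 0 and in 1 of 34.

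Lineage transcription factors went both ways: 6 were higher and 7 lower in blood of 21 against the control tumor, and 5 and 7 of 22 against the Treg-depleted tumor, with medians of -0.66 and -0.44. Of all genes 18.5% were higher and 14.3% lower against the control tumor, and 25.8% and 17.8% against the Treg-depleted tumor, so the 5 of 22 was near that share. The genes named next are single genes and stand for no list. Klf2, which keeps leukocytes quiescent and in circulation, was at 968 CPM in members and at 76.0 and 77.6 CPM in the tumor cells. Cx3cr1 was at 275, 20.8 and 5.17 CPM, and Klf13 at 345, 80.1 and 69.5 CPM. Nfe2, a factor best known from platelet and red cell precursors, had 640 UMIs in members (75.2 CPM) and 1 in control tumor cells, a log2 ratio of 6.17 (3.69 to 11.48), and was at 3.70 CPM in the Treg-depleted tumor. Il17ra, a receptor for interleukin 17, was at 227, 54.1 and 36.2 CPM, and Cebpa at 76.8, 15.6 and 31.8 CPM, while Cebpb was lower in blood, at 469 against 2359 and 2328 CPM. Hpgd, which inactivates prostaglandins, was at 230 CPM in members and had 3 UMIs in Treg-depleted tumor cells (log2 ratio 6.70, 5.15 to 8.98). Txnip, a thioredoxin inhibitor, was at 183 CPM against 37.5 CPM in the control tumor.

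**Figure D4:**
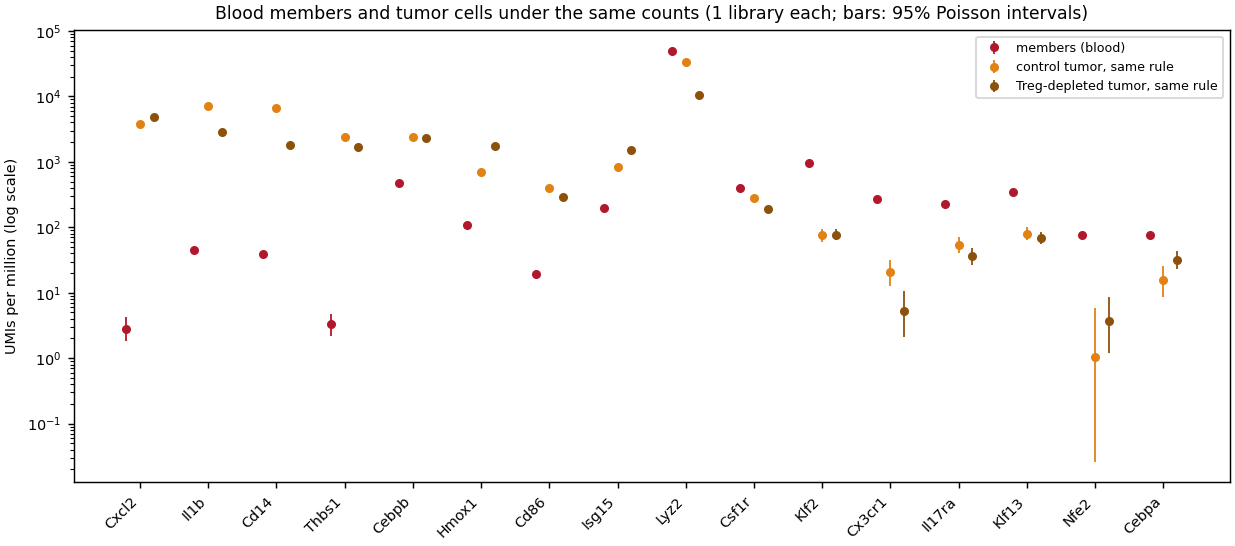
CPM (log scale) in blood members and in tumor cells under the same rule, 1 library each, with 95% Poisson intervals. Cxcl2, Il1b, Cd14 and Thbs1 lie far higher in both tumors, Klf2, Cx3cr1 and Nfe2 higher in blood, and Csf1r was at 399 CPM in blood and 280 and 190 CPM in the tumors.

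The variation among members beyond counting was measured gene by gene. After thinning to 1500 UMIs, counting alone gives a Fano factor (variance over mean) near 1, and the median over 2025 genes was 1.02 in 2181 members. It exceeded 1.5 in 60 genes, and in 47 genes among 2028 trimmed members. For the same relative difference between cells, the factor rises less in genes with few UMIs, so more genes may vary than these. S100a8 (77.1), Ccl5 (63.3), S100a9 (43.9), Retnlg (32.6) and Gzma (30.0) led over all members. The NK and neutrophil lists were used in the trimming, after which S100a8 was at 6.13.

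In the trimmed class Slpi led with a Fano factor of 8.65: 26.6% of cells had a UMI of it and the highest had 79 of its 1500. That was the only cell with 10 or more Slpi UMIs, so the rank rests largely on 1 cell. Hmox1, named below, had 2 such cells, and Apoe had 328. Apoe, the lipid carrier, followed with 8.39, then actin Actb with 6.80, Chil3, a rule gene, with 6.73, Lyz2 with 5.78, Lyz1 with 4.53, Cd74 with 3.97 and Hmox1 with 3.81. The rule genes Ly6c2 (2.55), Ccr2 (1.48) and Fn1 (1.48) varied less than Chil3 by this measure. Of the 25 most variable genes over all members, 20 were among the 25 of the trimmed class.

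The members also varied along the counts that bounded them. Members with more of A had more of other nonclassical genes, although A was no more than B in any of them. In the trimmed class 232 members had A of 0, 343 of 1 and 1463 of 2 or more, with median depths of 3693, 3800 and 3796 UMIs. Of 18 genes of the nonclassical programme with 100 UMIs, 7 were at least 2-fold higher at A of 2 or more than at 0 and 0 lower, against 1.23% and 0.137% of 5844 genes. The list was chosen with earlier results of these data known, so these counts are a description. Adgre4 was at 23.0, 26.9 and 76.8 CPM along the bins, Hes1, a Notch target, at 9.19, 10.5 and 43.5 CPM, Itgal at 70.1, 85.1 and 155 CPM, and Nr4a1 at 41.4, 59.0 and 89.9 CPM. Cx3cr1 was at 203, 258 and 300 CPM, a smaller difference, and Prtn3, a protease of granulocyte precursors, was at 63.2 CPM at A of 0 and 34.2 CPM at 2 or more. Over all members the count was 5 of 18, and 1 lower, Cd9, against 0.951% and 1.11% of 6100 genes.

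Below the class II limit, 1148, 697, 271 and 101 members had 0, 1, 2 and 3 class II UMIs. Cd74 was at 493, 650, 978 and 1872 CPM along these bins and H2-DMb1 at 116, 122, 194 and 241 CPM, the 2 genes of 8 on the class II pathway list that were at least 2-fold higher in the last bin (0.607% of all genes were, and 3.85% were lower). In the trimmed class the count was again 2 of 8 (0.719% and 3.51% of all genes). Of the dendritic cell-type genes 0 of 13 reached 2-fold higher, with a median log2 ratio of 0.09, and Clec10a was at 39.6, 38.5, 45.5 and 21.5 CPM. Batf3, a dendritic cell factor on the same list, was at 52.7, 68.3, 54.5 and 105 CPM. Its log2 ratio between the last and the first bin, 1.00 when rounded (0.49 to 1.47), lay just under the limit.

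The interferon response graded below its limit too. Members with 0, 1 and 2 to 4 interferon UMIs numbered 1702, 331 and 184. Of 32 type I interferon genes tested, 24 were at least 2-fold higher in the last bin than in the first, and 0 lower, against 1.16% and 2.02% of all genes, and their median log2 ratio was 1.24. Isg15 was at 129, 266 and 655 CPM, Irf7 at 185, 381 and 523 CPM and Usp18 at 40.8, 87.5 and 143 CPM. Ifitm3, already abundant, differed less, at 7217, 8367 and 8709 CPM, and Irf9 was at 89.6, 85.2 and 76.1 CPM. Of the interferon gamma list 7 of 12 were at least 2-fold higher, among them Gbp2 at 26.7, 37.9 and 84.1 CPM. Median depths were 3766, 3803 and 3998.5 UMIs. In the trimmed class 23 of 32 type I genes were higher and 0 lower (1.21% and 1.73% of all genes).

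Along the granule count few genes of the list differed. Retnlg was at 85.6 CPM in 2075 members with 0 granule UMIs and at 234 CPM in 142 with 1, the 1 gene of 13 on the granulocyte-type list past 2-fold (0.23% of all genes were higher and 2.23% lower). In the trimmed class Retnlg was at 21.2 and 22.7 CPM and 0 of 13 were past 2-fold (0.257% higher and 2.1% lower over all genes).

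**Figure D5:**
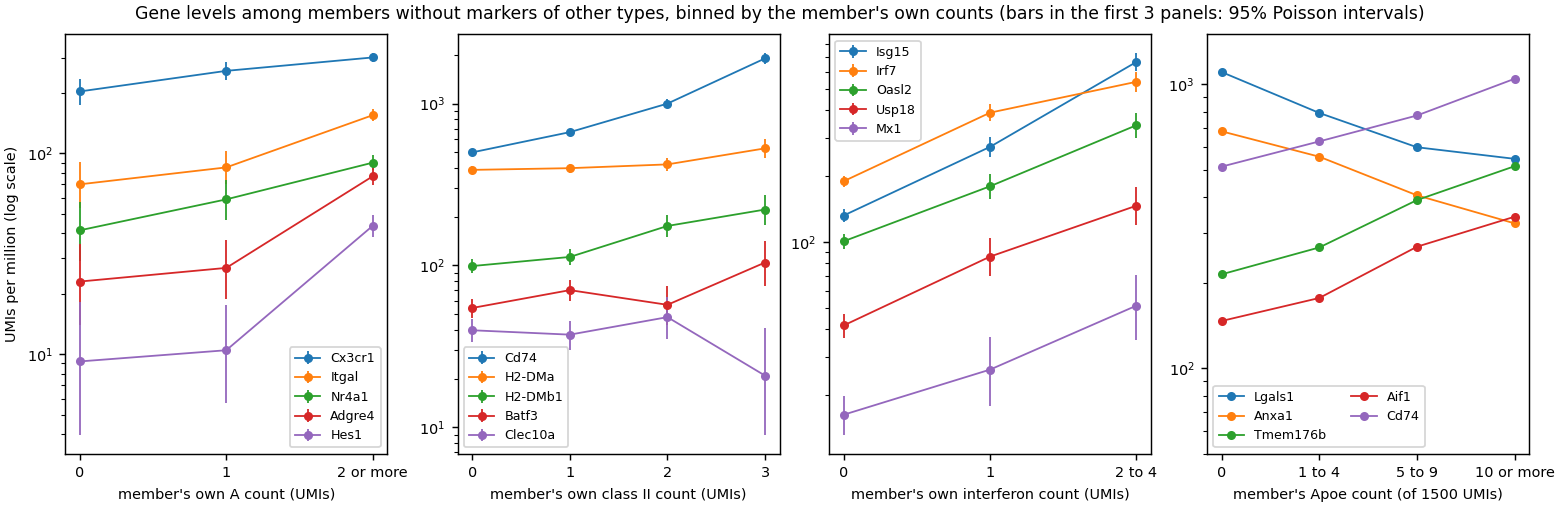
CPM (log scale) of genes outside the rule in the trimmed class, binned by the member's A, class II or interferon count, or by its Apoe count among 1500 UMIs. Cd74 climbs along the class II bins, Isg15 along the interferon bins and Adgre4 and Hes1 along the A bins, and Lgals1 and Anxa1 decline along Apoe while Tmem176b, Aif1 and Cd74 climb.

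Apoe and Chil3 were chosen for a closer view after their variation had been seen. Of the 2028 trimmed members, 658 had 0 Apoe UMIs among 1500, 667 had 1 to 4, 375 had 5 to 9 and 328 had 10 or more. The thinned share with an Apoe UMI was 65.8% in members, 84.3% in nonclassical monocytes, 22.4% in NK cell-type cells and 21 of 35 in B cell-type cells, so its share in members was near that of 1 background class. Of 2175 genes, 5 (0.23%) were higher by 2-fold or more at 10 or more Apoe UMIs than at 0, and 9 (0.414%) lower. Median B was 26 to 27 UMIs in the 4 bins.

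With more Apoe, the membrane protein Tmem176b and the macrophage-type Aif1 were higher, at 214, 266, 391 and 514 CPM and at 147, 177, 268 and 342 CPM along the bins. Trf, which encodes transferrin, was at 216, 277, 395 and 483 CPM, Adgre4 at 42.8, 58.9, 77.6 and 89.7 CPM and Cd74 at 513, 629, 776 and 1045 CPM. Lower with more Apoe were Serpinb1a, an inhibitor of neutrophil proteases, at 73.6, 53.1, 30.1 and 22.8 CPM, and Cfp, the complement factor properdin, at 198, 154, 103 and 92.9 CPM. Anxa1 was at 683, 556, 406 and 324 CPM and Lgals1 at 1103, 792, 600 and 546 CPM.

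Chil3 split the class differently. At 0, 1 to 4, 5 to 9 and 10 or more Chil3 UMIs among 1500 stood 595, 629, 445 and 359 trimmed members, with median B of 19, 23, 31 and 49, as the gene is part of B. Of 2241 genes, 3 (0.134%) were higher by 2-fold or more in the last bin and 5 (0.223%) lower. Cd209a, the lectin of dendritic-type monocytes, was at 112, 19.2, 8.99 and 6.72 CPM, a log2 ratio of -4.06 between the last and the first bin. It is on the cDC2 list, which reached 3 UMIs in 49 of the 2038 trimmed members, and their part in this was not tested. Clec4b1 was at 62.1, 53.1, 33.0 and 21.7 CPM, Ahr, the aryl hydrocarbon receptor, at 64.6, 53.9, 52.7 and 28.4 CPM and Tmem176b at 363, 334, 306 and 176 CPM. Higher were Pglyrp1, a peptidoglycan-binding protein, at 71.2, 120, 170 and 154 CPM, and Lpl at 89.0, 129, 145 and 183 CPM. S100a8, the third, had a log2 ratio of 1.35 here and -0.25 with all members kept.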

How the data were processed

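The authors deposited 3 matrices of UMI counts (27998 genes by all barcodes), made with Cell Ranger 1.2 against mm10, per the submitters' processing notes. Counts were read as sparse matrices. Kept cells had at least 1000 UMIs, 400 genes and at most 10% mitochondrial UMIs. The libraries held 22944387 UMIs (blood), 42493416 (tumor, control) and 23291061 (tumor, Treg-depleted). Counting is least precise for low counts, and depth does not measure the spread between cells or animals.

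Counts were summed over a class and divided by the class total (CPM). A gene was compared with at least 100 UMIs and 50 CPM in the higher class and called at 2-fold. In the interferon-high and tumor classes, which held few UMIs in total, 100 UMIs is more than 50 CPM. The filter was therefore stricter for genes higher in those classes than for genes higher in members. A gene with 0 counts was set to 3 counts. Per comparison the 12 highest and 12 lowest ratios, genes of 20 fixed lists (457 of 460 genes found) and of 21 marker lists (111 of 114) could be named, with the 25 most variable and the 20 most counted genes. Rule, ribosomal protein and mitochondrial genes were left out of the first, and 1 gene is not reported here. Members and lists were chosen with earlier results of these data known. Doublets were kept, and as an alternative 246 of 5550 blood cells (4.43%) with the most simulated doublets among their neighbours were removed. Gene identifiers were matched to GENCODE M21 (27645 of 27998). Ratios and Fano factors were tested on simulated data. Python 3.11.15, numpy 2.4.6, scipy 1.17.1, pandas 2.3.3 and scikit-learn 1.9.0 were used.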

Additional observations from a re-analysis of the deposited data

How the results depend on the processing

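With 1 library per group, nothing here measures the spread between animals, and a gene at a few CPM is uncounted in most single cells. No paired analysis was possible because each group has 1 library and no replicate number. Of 139 summary values, 113 stayed within their limits. The share of members was 46.1% at 2000 UMIs or more, 46.0% with the rule applied after thinning, and 36.7% without cells with markers of other types. With 20 UMIs and no CPM minimum, genes higher and lower numbered 634 and 385 against nonclassical, 211 and 256 against MHC-II-high, 898 and 258 against interferon-high monocytes, 2592 and 759 against the control and 3070 and 1013 against the Treg-depleted tumor. Members held the most UMIs, 8513686, so 20 UMIs was a lower CPM in them than in any class compared. The 2 sides of these splits were therefore not filtered alike and cannot be set against each other. Against interferon-high monocytes 95 genes were higher with the rule applied after thinning, 14 without cells with markers of other types, 14 with the median ratio set to 1 and 45 with totals taken without rule, ribosomal protein and mitochondrial genes. That last scaling gave 54 lower genes against MHC-II-high monocytes. With the median ratio set to 1, 274 and 478 genes were higher than in the control and Treg-depleted tumor. With the trimmed classes 321 were lower than in the Treg-depleted tumor, where most cells left out fell to the Lyz2 limit alone. Along the members' own counts, lower nonclassical programme genes went from 1 to 0 and higher granulocyte-type genes from 1 to 0, each without cells with markers of other types and with 2000 to 5000 UMIs, and higher class II pathway genes from 2 to 1 with 2000 to 5000 UMIs. Of 1072 list medians 30 moved, 17 of them against the Treg-depleted tumor, and 56 took the other sign, of which the adhesion list against interferon-high monocytes (median ratio set to 1) is the only one with its median printed above. Of 1368 values of named genes 146 moved, 62 of them against MHC-II-high monocytes, and 4 reversed: Gzma against MHC-II-high monocytes (-0.056 at 2000 UMIs or more), Ccl5 against MHC-II-high (-1.61) and interferon-high monocytes (-1.45) without cells with markers of other types, and S100a8 along Chil3 (-0.25 with all members kept). The cause was not tested, beyond the marker values given above.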
